A study of Mus musculus with 2 samples.

Results

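The 10 genes described here encode the MHC class I molecule and the proteins that load it with peptide. They were chosen by symbol, and all 10 had a row among the 19294 gene symbols of the matrix. B2m encodes beta-2-microglobulin, the light chain. H2-K1 and H2-D1 encode the classical heavy chains, and H2-T23 (Qa-1) and H2-T3 (the TL antigen) encode nonclassical ones. Tap1 and Tap2 encode the subunits of the peptide transporter, and Tapbp encodes tapasin, which holds the heavy chain at that transporter. Calr (calreticulin) and Pdia3 (ERp57) are chaperones of the endoplasmic reticulum that also fold many other secreted and membrane proteins.

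MHC class I molecules carry peptides from proteins made inside a cell to its surface, where CD8 T cells read them. Proteasomes, among them the immunoproteasome with the subunits Psmb8 and Psmb9, cut the proteins, the transporter moves the peptides into the endoplasmic reticulum, and the loading complex places them on the heavy chain and beta-2-microglobulin. Nearly all nucleated cells display the classical molecules, lymphocytes at high levels, and interferon raises the genes of the pathway in many tissues. In the gut, H2-T3 binds the CD8alpha homodimer of intraepithelial lymphocytes (IELs), the T cells that sit between epithelial cells, and H2-T23 is read by the receptor pair of Klrd1 (CD94) and Klrc1 (NKG2A).

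Transcripts were counted in single cells by Drop-seq, in which a bead in each droplet tags the ends of a cell's transcripts with 1 barcode for the cell and a random tag for each molecule (UMI). The cells came from colon crypts of C57BL/6 mice between 4 and 10 months of age that all carried Tcf4 GfpCre/+ and RosamTmG/+, with no pretreatment. Cre sits at 1 allele of Tcf4, so that all cells were heterozygous for this transcription factor of Wnt signalling (also named Tcf7l2), and the Tcf4 promoter turns the reporter from membrane Tomato to membrane GFP. Cells whose lineage never used the promoter (Tcf4 Lin-) keep Tomato alone, and cells with both proteins (DP) have used it recently. The labels describe 2 samples, pools of samples 1 to 3 and 4 to 6, both named Tcf4 Lin-/Tcf4 DP, and both kinds of sorted cells entered them. No condition or animal could therefore be compared.

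The matrix held 1117 barcodes and 1023641 UMIs. The authors' list of cell clusters names 516 of the barcodes as natural IELs (nIELs), induced IELs (iIELs), B cells or epithelial Pigr+ cells, and divides epithelial cells into stem cells, secretory precursors and absorptive precursors. It places 14 cells both among the IELs (11 as iIELs and 3 as nIELs) and in an epithelial subcluster. All 14 held UMIs of Epcam, Krt8, Krt19 or Pigr and 3 held UMIs of T cell markers, and here they count in the subcluster only. This left 187 nIELs, 175 iIELs, 47 B cells, 32 stem cells, 32 secretory precursors and 42 absorptive precursors, with median depths between 950.0 and 1940 UMIs. Barcodes end in X1 or X2, which matched no label, and the 2 barcode sets shared no cell barcode, so all cells were treated as 1 sample without replicates.

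The level of a gene in a set of cells is its UMI count there divided by the set's total and scaled to 1000000 (CPM), with an exact 95% interval from the Poisson distribution. A fold is the ratio of 2 such levels, with an exact binomial 95% interval. Both cover counting error only, with each UMI taken as independent, and there is no test. Drop-seq counts the ends of transcripts, so that a level serves to compare sets of cells for 1 gene and not to compare genes. The authors formed the clusters from the expression of the same cells, so that levels by cluster are descriptions.

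The promoters of 5 members are shown because the members fell into a group that was low in epithelial cells (B2m, H2-D1 and H2-T23) and one that was high there (Calr and Pdia3). Each run gives the 180 bases upstream of the RefSeq start on GRCm38.p6, 5′ to 3′ on the gene's strand. Capitals mark matches, on either strand, to CCAAT, to GGGNNTTCC, to GAAA followed by 2 bases of any kind and GAAA, and to CCAAT followed by 9 bases of any kind and CCACG, which overlaps the first motif.
B2m, chr2:122147507-122147686, plus strand: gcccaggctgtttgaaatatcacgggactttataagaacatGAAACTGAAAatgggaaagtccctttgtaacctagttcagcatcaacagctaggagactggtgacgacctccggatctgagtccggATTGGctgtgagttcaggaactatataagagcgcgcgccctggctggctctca
H2-D1, chr17:35262914-35263093, plus strand: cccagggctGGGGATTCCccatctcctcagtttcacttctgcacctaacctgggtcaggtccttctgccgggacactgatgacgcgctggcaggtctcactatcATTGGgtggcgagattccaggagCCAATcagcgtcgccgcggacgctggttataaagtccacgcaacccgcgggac
H2-T23, chr17:36032702-36032881, minus strand: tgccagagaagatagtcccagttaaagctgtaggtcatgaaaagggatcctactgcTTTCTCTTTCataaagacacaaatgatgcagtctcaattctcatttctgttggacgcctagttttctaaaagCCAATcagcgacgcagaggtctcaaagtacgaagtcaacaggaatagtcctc
Calr, chr8:84846932-84847111, minus strand: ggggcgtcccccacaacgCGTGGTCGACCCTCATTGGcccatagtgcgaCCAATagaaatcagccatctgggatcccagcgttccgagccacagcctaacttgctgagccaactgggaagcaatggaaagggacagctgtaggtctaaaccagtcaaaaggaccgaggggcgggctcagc
Pdia3, chr2:121413722-121413901, plus strand: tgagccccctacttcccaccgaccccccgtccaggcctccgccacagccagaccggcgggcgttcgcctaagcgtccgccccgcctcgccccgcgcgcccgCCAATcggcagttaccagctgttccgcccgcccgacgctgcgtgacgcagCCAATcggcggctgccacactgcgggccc

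The spaced GAAA pair, the form of an interferon response element, lay 139 bases before the start of B2m and 124 bases before that of H2-T23. Of all 32851 RefSeq promoter windows, which run from 250 bases before to 50 bases after a start, 3.44% held it. GGGNNTTCC, a form of the NF-kappaB site, began 171 bases before the start of H2-D1 and 111 bases before that of H2-K1, and 5.82% of all windows held it. CCAAT was in the windows of 8 of the 9 members that have one, and in 37.4% of all windows. The long motif, the form of an endoplasmic reticulum stress element, was in the window of Calr and of no other member. It was in 0.119% of all windows, among them those of Canx, Hspa5 and Hsp90b1, 3 of 36 other genes of the pathway with a window. H2-T3 held none of the 4 motifs. A match of letters describes the sequence and not the binding of a factor, which was not measured.

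By position, 7 of the 10 genes lie on chromosome 17, in the MHC. Tap1 (chr17:34187556-34197225) and Tap2 (chr17:34204479-34216321) enclose Psmb8 (chr17:34198195-34201454), and Psmb9 (chr17:34182030-34187330) ends 226 bases before Tap1 begins. Tapbp (chr17:33919478-33929290) and H2-K1 (chr17:33996012-34000619) lie to one side. H2-D1 (chr17:35263094-35267497), H2-T23 (chr17:36029977-36032701) and H2-T3 (chr17:36185571-36190151) lie to the other. B2m (chr2:122147687-122153082) and Pdia3 (chr2:121413902-121438687) are on chromosome 2, and Calr (chr8:84842088-84846931) is on chromosome 8.

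**Figure D1:**
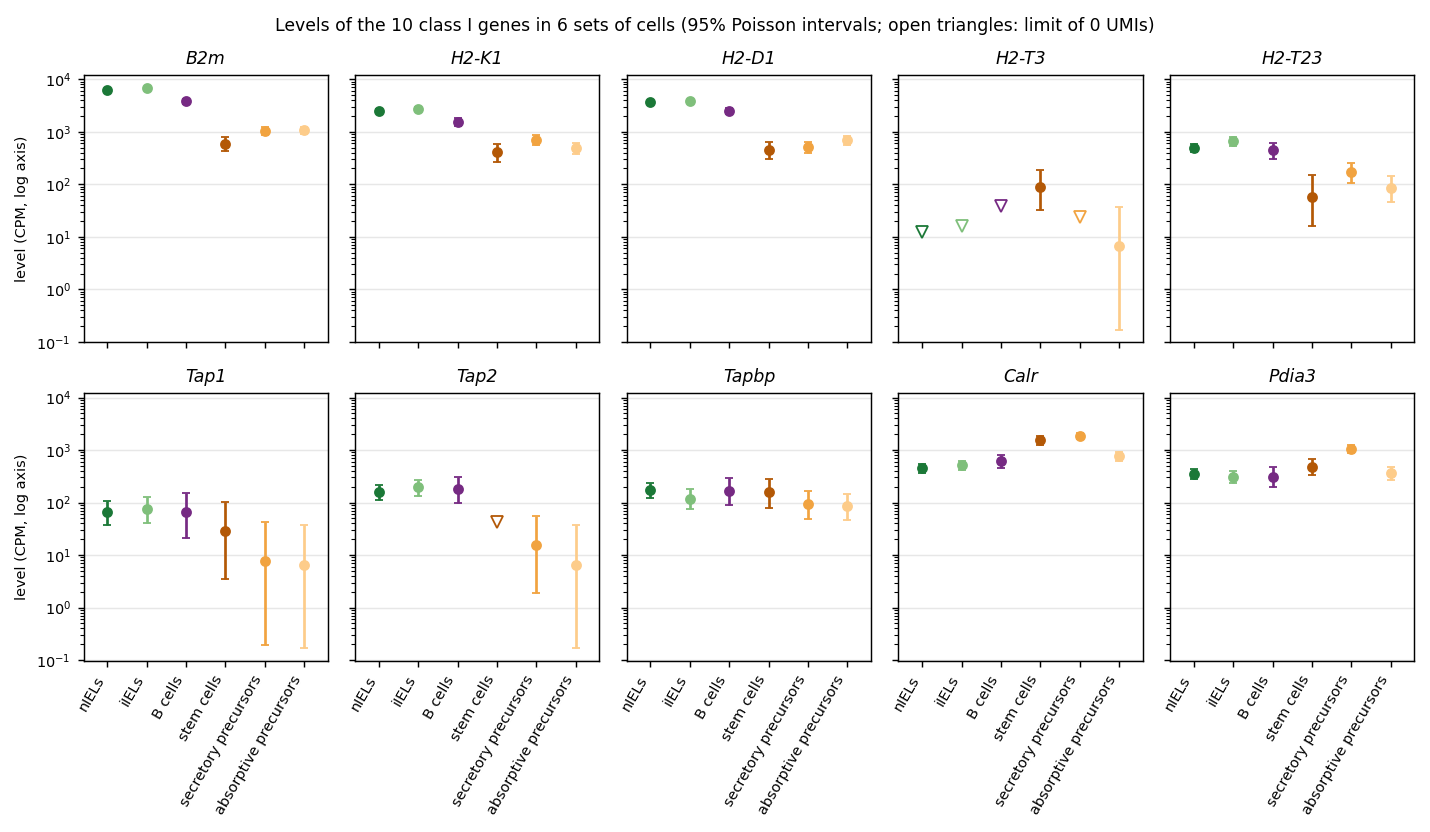
Levels of the 10 genes in 6 sets of cells, in CPM on a log axis, with 95% Poisson intervals. Open triangles stand at the level that 3 UMIs would give, where a set held 0 UMIs. B2m, H2-K1, H2-D1 and H2-T23 were higher in all 3 lymphocyte sets than in all 3 epithelial sets, and Calr was lower in them.

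The light chain and the classical heavy chains were several-fold lower in epithelial cells than in IELs. B2m stood at 6821 CPM (6450 to 7208) in iIELs, 6333 CPM (6018 to 6659) in nIELs and 3806 CPM (3382 to 4269) in B cells. It stood at 1061 CPM (903 to 1238) in absorptive precursors, 1034 CPM (865 to 1225) in secretory precursors and 594 CPM (426 to 806) in stem cells. In this order, the intervals of the ratio between neighbours included 1 for iIELs and nIELs (1.08, 0.999 to 1.16) and for absorptive and secretory precursors (1.03, 0.811 to 1.301), and excluded 1 for the other 3 pairs. Over the 106 epithelial subcluster cells B2m was 6.83-fold lower than in the 362 IELs (6.09 to 7.67). In the epithelial Pigr+ cluster as the authors list it, with 93 cells, its level was 826 CPM (716 to 947), and in the iIEL cluster as listed, with the cells that are also in a subcluster, it was 4903 CPM (4649 to 5167).

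H2-K1 and H2-D1 followed the same order among the lymphocyte sets. H2-K1 had 2765 CPM in iIELs, 2479 CPM in nIELs and 1538 CPM in B cells, against 692 CPM in secretory precursors, 481 CPM in absorptive precursors and 406 CPM in stem cells. H2-D1 had 3775 CPM in iIELs, 3679 CPM in nIELs and 2503 CPM in B cells, against 698 CPM in absorptive precursors, 505 CPM in secretory precursors and 449 CPM in stem cells. The 3 lymphocyte levels of each gene lay above its 3 epithelial levels, with no overlap of intervals. H2-K1 was 4.79-fold lower in epithelial cells than in IELs (4.10 to 5.62), and H2-D1 was 6.44-fold lower (5.56 to 7.49).

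The nonclassical H2-T23 had 659 CPM in iIELs (547 to 787), 496 CPM in nIELs (411 to 593) and 443 CPM in B cells (307 to 619). Its epithelial levels were 171 CPM in secretory precursors (107 to 259), 85.7 CPM in absorptive precursors (45.6 to 146) and 57.9 CPM in stem cells (15.8 to 148). It was 5.08-fold lower in epithelial cells than in IELs (3.61 to 7.32). Of the 50-base windows in the last 500 bases of its longest coding transcript in GENCODE M21, 38.1% also occur in transcripts of other genes, and 14.4% in those of other H2 genes, so that its counts depend on how shared reads were treated. The same share was 9.53% for H2-D1, 0.443% for H2-K1, 0.665% for H2-T3 and 0 for the other 6 members.

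With the cells of 2 listings counted in the subcluster only, H2-T3 was the one member without a UMI in any IEL or B cell. Its 7 UMIs in assigned cells were all epithelial, with 6 in 5 stem cells and 1 in an absorptive precursor. The level in stem cells was 86.9 CPM (31.9 to 189) and in absorptive precursors 6.59 CPM (0.167 to 36.7). A count of 0 allows up to 12.5 CPM in nIELs, 16.2 CPM in iIELs, 39.1 CPM in B cells and 23.3 CPM in secretory precursors, and up to 1.60% of nIELs, 1.71% of iIELs and 6.38% of B cells with a UMI. Against all IELs H2-T3 was at least 2.84-fold higher in epithelial cells, with the 0 UMIs of the IELs taken as 3, and the exact interval for 7 against 0 UMIs began at 1.75. The ratio of stem cells to both precursor subclusters, of 6 UMIs to 1, was 24.4 (2.96 to 1121). The UMIs came from both barcode sets, and 3 of the 5 stem cells are also listed as iIELs. In the clusters as listed, iIELs held 3 UMIs, at 10.6 CPM (2.18 to 30.9), and epithelial Pigr+ cells held 4, at 16.1 CPM (4.39 to 41.2). The lack of H2-T3 in IELs thus rests on where these cells are counted. Without the cells with 2 listings 3 UMIs remained in stem cells, at 73.5 CPM (15.2 to 215). No T cell marker had a UMI in the stem cell subcluster, which may follow from how the cells were chosen, as described below.

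The transporter genes were rare everywhere. Tap1 had 16 UMIs in nIELs (66.7 CPM), 14 in iIELs (75.6 CPM) and 5 in B cells (65.2 CPM), against 4 in all epithelial subclusters (11.4 CPM, 3.12 to 29.3), where it was 6.16-fold lower than in IELs (2.17 to 24.1). Tap2 had 38 UMIs in nIELs (158 CPM), 36 in iIELs (194 CPM) and 14 in B cells (182 CPM), against 3 in all epithelial subclusters (8.58 CPM, 1.77 to 25.1). The ratio of epithelial cells to IELs was 0.0493 for Tap2 (0.00994 to 0.1499). Stem cells held no Tap2 UMI, which allows up to 43.4 CPM. Among the 3 epithelial sets neither gene could be ordered at this depth. Tapbp, by contrast, had levels between 85.7 CPM in absorptive precursors and 171 CPM in nIELs, and the interval of every neighbouring pair included 1. It was 1.44-fold lower in epithelial cells than in IELs, with an interval that included 1 (0.940 to 2.23).

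The chaperones went the other way. Calr had 1850 CPM in secretory precursors (1622 to 2100), 1550 CPM in stem cells (1270 to 1873) and 764 CPM in absorptive precursors (632 to 917), against 613 CPM in B cells (450 to 815), 508 CPM in iIELs (410 to 621) and 446 CPM in nIELs (365 to 539). It was 2.79-fold higher in epithelial cells than in IELs (2.36 to 3.31). Pdia3 had 1041 CPM in secretory precursors (873 to 1233), 478 CPM in stem cells, 362 CPM in absorptive precursors, 346 CPM in nIELs, 313 CPM in B cells and 308 CPM in iIELs. Only secretory precursors stood apart from the next set for Pdia3, with a ratio of 2.18 (1.48 to 3.29). Over all epithelial cells it was 1.93-fold higher than in IELs (1.55 to 2.40), just inside the 2-fold limit.

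**Figure D2:**
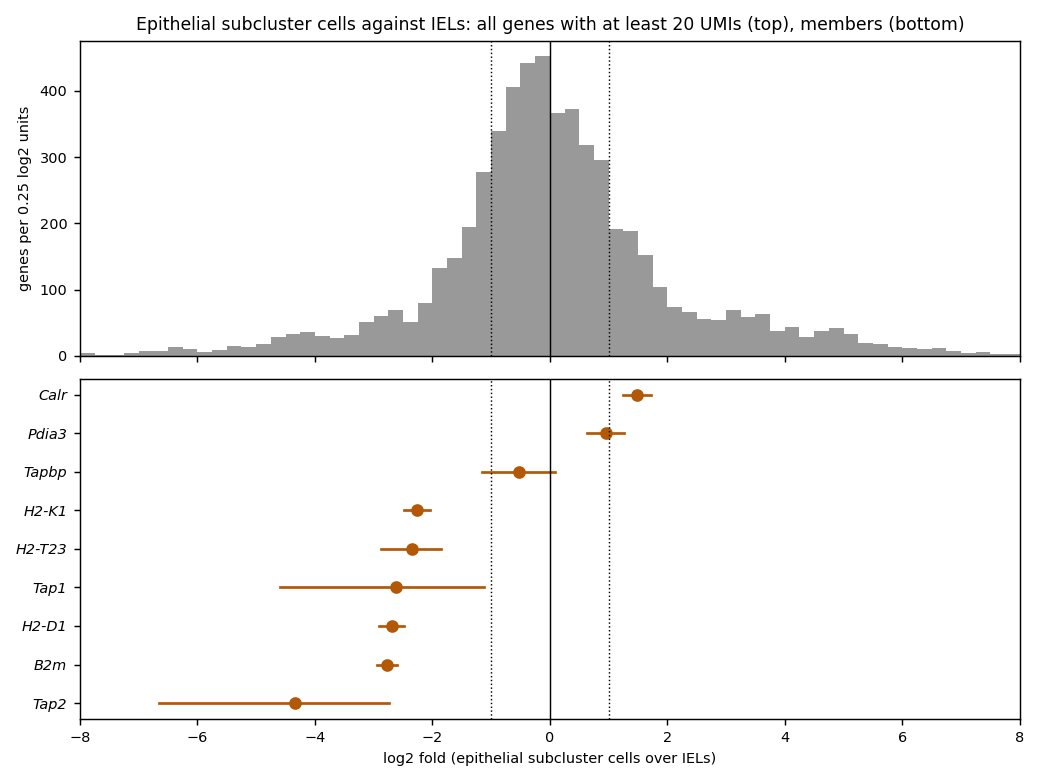
The top panel counts all 5778 genes with at least 20 UMIs in epithelial subcluster cells and IELs together by their log2 fold. The bottom panel shows the log2 folds of the 9 members with that many UMIs and their 95% intervals, with dotted lines at 2-fold. The 6 members at the bottom lie between -4.34 and -2.26, and Calr lies at 1.48.

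Of the 9 members with at least 20 UMIs in epithelial cells and IELs together, 6 were at least 2-fold lower in epithelial cells, as were 23.6% of all 5778 genes, and 1 was at least 2-fold higher, as were 24.6%. The median log2 fold of the 9 was -2.34, against -0.07 over all genes. Tap1 and Tap2 had 4 and 3 UMIs in epithelial cells. They reached 20 UMIs through the IELs, so that their direction is not independent of that, and both enter the 6 and the median. H2-T3, with 7 UMIs, all epithelial, had too few. The same 6 members were lower within barcode set X1, where B2m had a ratio of 0.162, and B2m had 0.107 within set X2. Calr had ratios of 2.51 and 6.14 within the 2 sets.

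T cell RNA was measured in the same cells. Over 9 T cell genes the summed level was 11546 CPM in IELs and 91.6 CPM in epithelial subcluster cells, or 0.793% of the IEL level, while B2m stood at 14.6%, H2-K1 at 20.9%, H2-D1 at 15.5% and H2-T23 at 19.7%. Stem cells held 0 T cell marker UMIs and secretory precursors held 1, of Ptprc. That gene is in the T cell list, but other leukocytes express it too. In absorptive precursors the sum was 31 UMIs, with Cd3e, Cd8a and Gzmb at 0. Most of them, 26, were in 1 cell that is also listed as an iIEL. For its trajectories the paper describes picking epithelial cells by Pigr and by a lack of T cell markers. If the subclusters rest on that choice, their low T cell level follows from it in part. The 8 epithelial markers summed to 26293 CPM in the subclusters and 198 CPM in IELs. Mitochondrial genes took 5.80% of UMIs in epithelial cells and 2.502% in IELs, and with mitochondrial and ribosomal protein genes left out none of the 41 member folds of all comparisons moved outside its interval.

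**Figure D3:**
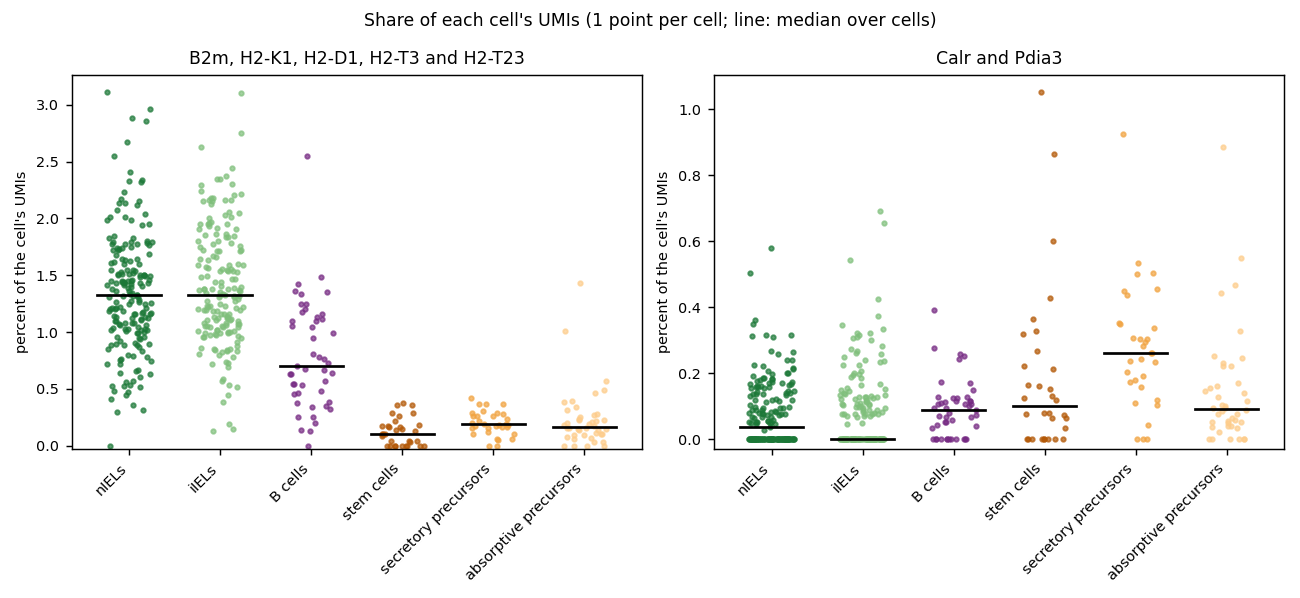
Each point is 1 cell, placed by the percent of its UMIs that came from the 5 chain genes (left) or from Calr and Pdia3 (right), and lines are medians over cells. The medians for the chains are 1.32% in nIELs, 1.33% in iIELs and 0.705% in B cells, and between 0.103% and 0.187% in the epithelial sets.

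The difference was spread over cells. The chain genes B2m, H2-K1, H2-D1, H2-T3 and H2-T23 together took a median of 1.32% of a cell's UMIs in nIELs (0 to 3.11%), 1.33% in iIELs (0.126 to 3.11%) and 0.705% in B cells (0 to 2.55%). The medians were 0.103% in stem cells (0 to 0.377%), 0.187% in secretory precursors (0 to 0.422%) and 0.165% in absorptive precursors (0 to 1.43%). No stem cell or secretory precursor, and 2 absorptive precursors, lay above 0.766%, the tenth percentile of IELs, which 325 of 362 IELs exceeded. The higher of the 2, at 1.43%, is the cell with 26 T cell marker UMIs. The other, at 1.01%, held 67 UMIs of Epcam, Krt8, Krt19 and Pigr and no T cell marker. The 14 cells with 2 listings had a median of 0.140%, near those of the epithelial sets.

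A UMI of B2m was found in 97.9% of nIELs (94.6 to 99.4%), 98.3% of iIELs and 91.5% of B cells, against 43.8% of stem cells (26.4 to 62.3%), 68.8% of secretory precursors and 71.4% of absorptive precursors. With every cell thinned to 700 UMIs these shares were 98.3%, 98.7%, 84.1%, 22.997%, 42.1% and 42.9%, over 155 nIELs, 142 iIELs, 42 B cells, 26 stem cells, 29 secretory precursors and 38 absorptive precursors. The order of levels was kept, with both lymphocyte and epithelial sets in their places. A Calr UMI was found in 87.5% of secretory precursors (71.0 to 96.5%), 73.8% of absorptive precursors and 62.5% of stem cells, and in 35.8% of nIELs and 35.4% of iIELs. Thinned, the shares of Calr were 72.3%, 42.1%, 46.1%, 25.6% and 28.1%, in which stem cells and absorptive precursors changed places, as did nIELs and iIELs.

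The ratio of the light chain to the classical heavy chains was 0.855 over all epithelial cells (0.736 to 0.991) and 1.03 over all IELs (0.981 to 1.09). By set, in UMIs, B2m per UMI of H2-K1 and H2-D1 together was 1.03 in nIELs (0.957 to 1.11), 1.04 in iIELs (0.963 to 1.13), 0.942 in B cells (0.80003 to 1.11), 0.864 in secretory precursors (0.680 to 1.10), 0.899 in absorptive precursors (0.722 to 1.12) and 0.695 in stem cells (0.455 to 1.05). The ratio of H2-K1 to H2-D1 was less even, with 0.674 in nIELs (0.606 to 0.749), 0.689 in absorptive precursors (0.504 to 0.937) and 1.37 in secretory precursors (0.983 to 1.92).

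Other genes of the pathway were compared in the same way. Of 55 listed genes 51 had a row, and 30 of these had at least 20 UMIs. In epithelial cells 16 of the 30 were at least 2-fold lower, beside 23.6% of all genes, and 5 were at least 2-fold higher, beside 24.6%. Their median log2 fold was -1.17. Of 20 other heavy chains and class I-like genes with a row, 5 had enough UMIs, and these were lower. Each of the 5 had at most 12 UMIs in epithelial cells, so that it reached 20 UMIs through the IELs, and its direction is not independent of that. Below 20 UMIs, H2-Q2, named after its value was seen, went the other way, with 15 UMIs in epithelial cells and 2 in IELs, a ratio of 9.12 (2.12 to 82.2). H2-Q7, a Qa-2 heavy chain, had 20.03 CPM in epithelial cells and 1209 CPM in IELs and was 60.4-fold lower (29.1 to 151). H2-Q6 had 2 UMIs against 133, a ratio of 0.0183 (0.00219 to 0.0674). H2-Q4 was 9.63-fold lower (4.47 to 24.7), and H2-M3, which presents formylated peptides, was at least 10.1-fold lower, with 0 UMIs, taken as 3, against 37 (exact interval from 7.84). For H2-Q4 and H2-Q6, 33.7% and 35.9% of the windows at the transcript's end occur in other genes.

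The immunoproteasome subunit Psmb8 was 11.2-fold lower in epithelial cells (7.18 to 18.4). Its partner Psmb9, named after its value was seen as the gene next to Tap1, was 9.42-fold lower (5.09 to 19.3). In all, 4 of 9 proteasome genes were at least 2-fold lower, beside 23.6% of all genes, and 0 were at least 2-fold higher, beside 24.6%. Both further lower genes of the group encode the activator that interferon induces, Psme1 and Psme2, named after their values were seen, with levels of 172 and 180 CPM against 395 and 484 CPM. Psmb10, also a subunit of the immunoproteasome, lay within 2-fold, at 169 CPM against 205 CPM. Psmb5, Psmb6, Psmb7 and Psme3 did so too. Irf1, a transcription factor that interferon induces, also named after its value was seen, was 2.71-fold lower (1.55 to 4.97). Psmb9 and Irf1 had 11 and 17 UMIs in epithelial cells and reached 20 UMIs through the IELs. Their direction is not independent of that, and Psmb9 enters the count of 4 proteasome genes. The receptors for class I are genes of lymphocytes, so that they reached 20 UMIs through the IELs and their low epithelial levels follow from the clusters. Klrd1 had 3 UMIs in epithelial cells against 418 in IELs, a ratio of 0.00873 (0.00179 to 0.0257). Cd8a, which is also one of the T cell markers, and Cd8b1 had 0 epithelial UMIs and were at least 81.4-fold and 45.2-fold lower, with 0 taken as 3 (exact intervals from 65.8 and 36.4).

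Of 7 genes for chaperones and other proteins of the endoplasmic reticulum, 4 were at least 2-fold higher in epithelial cells, beside 24.6% of all genes. Of the same 7, 1 was at least 2-fold lower, beside 23.6%. The higher ones, named after their values were seen, were Hspa5 (BiP), at 2.91-fold (2.46 to 3.46), Ganab, the glucosidase that trims glycans for the calreticulin cycle, at 3.48-fold (1.85 to 6.92), Canx (calnexin), at 2.11-fold (1.70 to 2.63), and Hsp90b1, at 2.06-fold (1.80 to 2.37). Hspa5, Canx and Hsp90b1 hold the long motif shown above for Calr, while Ganab, with the largest of these folds, and the member Pdia3 do not. Whether the motif bears on the levels was not tested. The lower one, Tapbpl, is a relative of tapasin that edits peptides, at 2.20-fold lower (1.33 to 3.78). The fifth higher gene of the pathway was the aminopeptidase Lap3, at 4.69-fold (1.99 to 12.8). Ganab and Lap3 had 14 and 7 UMIs in IELs and reached the minimum of UMIs through the epithelial cells. Their direction is not independent of that, and Ganab enters the count of 4 higher genes.

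In B cells the light chain and the classical heavy chains lay between their epithelial and IEL levels. B2m was 1.72-fold lower than in IELs (1.52 to 1.95), H2-K1 was 1.69-fold lower (1.399 to 2.06) and H2-D1 was 1.49-fold lower (1.28 to 1.74). The intervals of H2-T23, Tap1, Tap2, Tapbp, Calr and Pdia3 included 1. Of 9 members 0 were at least 2-fold lower, beside 17.0% of 3844 genes, and the highest ratio to IELs was that of Calr, at 1.296 (0.923 to 1.79). The B cell cluster also held T cell markers, at 3702 CPM in 38 of 47 cells, or 32.1% of the IEL level, and macrophage and dendritic cell markers, at 899 CPM in 5 cells. The T cell list includes Ptprc, which B cells express too, so that its sum there can overstate T cell RNA. Without 14 possible doublets, of which 9 were B cells, B2m had a ratio of 0.489 to IELs, H2-D1 one of 0.519 and Tap1 one of 0.528, against 0.924 with them. Among the pathway genes 5 of 27 were at least 2-fold lower in B cells, beside 17.0% of all 3844 genes. Of the 27, 0 were at least 2-fold higher, and no share of all genes is given for that direction. The lower genes included Tapbpl and H2-T22, with 2 UMIs each and ratios of 0.188 (0.0222 to 0.709) and 0.209 (0.0247 to 0.794). Klrd1 was 4.71-fold lower, Cd8a was 2.06-fold lower, and Irf1 was 2.53-fold lower with an interval that included 1 (0.933 to 9.59). Apart from Cd8a, these genes reached the minimum of UMIs through the IELs, so that their direction is not independent of that. Klrd1 and Cd8a are shown in the study as markers of IELs, so that their lower levels follow from the clusters in part. H2-T22 shares 59.2% of its end windows with H2-T10.

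iIELs and nIELs had close levels of the class I genes. The ratio of iIELs to nIELs was 1.08 for B2m (0.999 to 1.16), 1.12 for H2-K1 (0.989 to 1.26) and 1.03 for H2-D1 (0.928 to 1.13). For H2-T23 it was 1.33 (1.02 to 1.73), the one member whose interval excluded 1. It was 1.13 for Tap1 (0.513 to 2.48), 1.23 for Tap2 (0.756 to 1.99), 0.696 for Tapbp (0.395 to 1.20), 1.139 for Calr (0.854 to 1.52) and 0.890 for Pdia3 (0.624 to 1.26). None of 9 members was past 2-fold, beside 6.20% of 3321 genes at least 2-fold higher and 5.72% at least 2-fold lower. With the cells with 2 listings counted in both, the ratio was 0.783 for B2m, 0.820 for H2-K1, 0.743 for H2-D1 and 0.962 for H2-T23, below 1 for each, and 1.79 for Calr. The study shows Cd8b1 and Cd8a as markers of iIELs and Klrd1 as one of nIELs, so that their values describe how the clusters were named. Cd8b1 was 25.4-fold higher in iIELs (12.6 to 59.96) and Cd8a was 2.34-fold higher (1.83 to 2.99), while Klrd1 was 2.36-fold lower (1.88 to 2.98). Of 26 pathway genes 4 were past 2-fold, these 3 receptors among them.

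**Figure D4:**
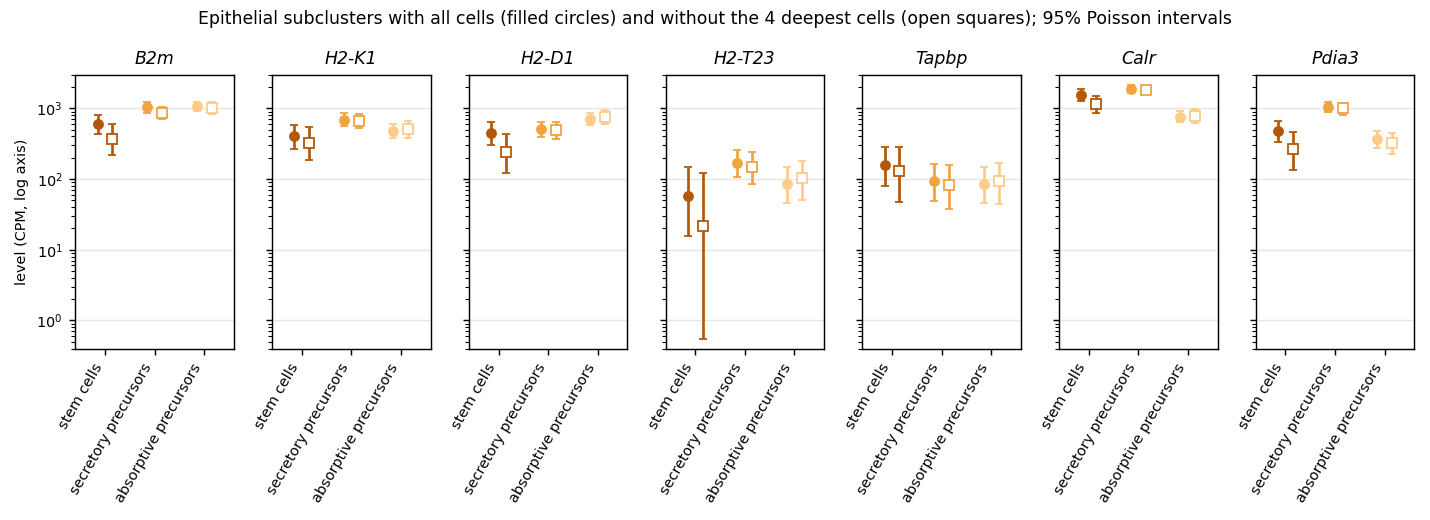
Levels of 7 members in the epithelial subclusters, in CPM on a log axis, with 95% Poisson intervals. Filled circles use all cells and open squares leave out the 4 deepest. B2m in stem cells falls from 594 to 371 CPM and Pdia3 from 478 to 262 CPM, while secretory precursors keep the highest Calr and Pdia3.

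Within the epithelium, 4 cells with between 19945 and 23205 UMIs, all listed as iIELs too, held 24.9% of the epithelial UMIs. One of them is a stem cell that held 24 of the 41 B2m UMIs of its subcluster and 55 of its 107 Calr UMIs, so values are given with and without these 4 cells.

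B2m was 1.77-fold lower in stem cells than in both precursor subclusters together (1.27 to 2.51). The intervals of the other chains with enough UMIs included 1, with H2-K1 at 1.42-fold lower (0.9495 to 2.21), H2-D1 at 1.36-fold lower (0.922 to 2.06) and H2-T23 at 2.15-fold lower, from 4 UMIs (0.770 to 8.34). Of 7 members with enough UMIs, H2-T23 alone was past 2-fold, beside 16.1% of 3013 genes at least 2-fold lower and 13.1% at least 2-fold higher. H2-T23 reached the minimum of UMIs through the precursors, so that its direction is not independent of that. Without the 4 deepest cells the ratio was 0.394 for B2m, 0.558 for H2-K1, 0.385 for H2-D1, 0.175 for H2-T23 and 0.396 for Pdia3, and 4 members were past 2-fold. The shares of all genes above are for all cells, and none is given for this setting, so that this count has none beside it. Within barcode set X2, which holds 15 of the 32 stem cells and the deepest of them, the ratio was 1.10 for B2m and 1.47 for H2-T23. Tapbp had a ratio of 1.79 (0.794 to 3.77) and Calr of 1.23 (0.980 to 1.53), and Calr fell to 0.874 without the 4 cells. Of 16 pathway genes, Psmb8 had a ratio of 2.03 (0.694 to 5.38) and Psme2, with 3 UMIs against 60, a ratio of 0.203 (0.0407 to 0.623). Psme2 also reached the minimum of UMIs through the precursors, with the same limit on its direction.

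Secretory precursors had more of the chaperones than absorptive precursors. Calr was 2.42-fold higher (1.93 to 3.05) and Pdia3 2.87-fold higher (2.08 to 4.01). These were 2 of 7 members at least 2-fold higher, beside 11.5% of 2410 genes, and 0 were at least 2-fold lower, beside 17.1%. Within barcode set X1 the ratios were 2.62 and 2.75, and within set X2 they were 1.69 and 3.76. B2m was even between the precursors (0.975, 0.769 to 1.23), while H2-K1 was higher in secretory precursors (1.44, 1.04 to 1.99) and H2-D1 was lower (0.723, 0.523 to 0.994). H2-T23 was just inside the limit, at 1.996-fold higher (0.962 to 4.31). Of 13 pathway genes, the translocon subunit Sec61b was 2.53-fold higher in secretory precursors (1.86 to 3.45), while Psme2 was 3.06-fold lower (1.63 to 6.17) and Irf2 3.39-fold lower (1.23 to 11.6). Psme2 and Irf2 had 13 and 5 UMIs in secretory precursors. They reached 20 UMIs through the absorptive precursors, so that their direction is not independent of that.

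The genes with the most similar pattern were sought among 2853 genes with at least 50 UMIs, by Pearson's r of log2(CPM + 10) over the 6 sets, which are few points of unequal depth. For B2m they were Gbp8 (r = 0.996), Ccl5 (0.995) and Fgl2 (0.994). Ccl5, a chemokine of activated T cells, had 22235 CPM in iIELs, 7841 CPM in nIELs and 3624 CPM in B cells, and between 14.5 and 77.7 CPM in the epithelial sets. For Calr they were Bag1 (0.996), Galnt10 (0.990) and Glg1 (0.989). Bag1, a regulator of Hsp70 chaperones, had 746 CPM in secretory precursors, 507 CPM in stem cells and 231 CPM in absorptive precursors, and between 112 and 156 CPM in the lymphocyte sets. For H2-T3, whose own pattern rests on 7 UMIs, they were Srsf2 (0.986), Esf1 (0.972) and Hsp90aa1 (0.971).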

How the data were processed

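Single cells of sorted mouse colon crypts were profiled by Drop-seq. The authors made the UMI counts with the Drop-seq software after adding human cells to the run. Aligner and tools were, by the submitters' processing notes, STAR 2.5.0 and Picard 1.137, with both mm10 and hg19 as builds. The counts were used as deposited, whole and not normalized, in 1 matrix of both samples. The gene annotation and the treatment of shared reads are not given in the sources used here. Cells were joined by barcode to the authors' clusters. Total UMIs per set were between 69046 (stem cells) and 240024 (nIELs), and per assigned cell between 504 and 23205, which sets the intervals. Levels, shares (exact Clopper-Pearson 95% intervals) and folds were computed with Python 3.11.15, numpy 2.4.6, scipy 1.17.1 and pandas 2.3.3. A gene was called past 2-fold if both sets together held 20 UMIs or more, and a count of 0 was taken as 3. With 1 sample there was no test. The calculation of fold and interval was checked on counts drawn from a Poisson distribution, in which each UMI is independent, as the interval assumes. That check says nothing on UMIs that gather in few cells. Doublets were treated by leaving out cells with at least 2 UMIs of another lineage's markers, as an alternative. The planned comparison of heavy chain protein sequences was not run. The 10 members and all lists were chosen with earlier results of these data known. Named are the members, up to 8 pathway genes past 2-fold per comparison by size, and those said to be named after their values were seen. Barcodes without a cluster entered no comparison, and 1 pathway gene is not reported here. Promoters are from RefSeq (GRCm38.p6), where 9 of 10 members matched, and positions are from the RefSeq gene table of the same build. H2-K1 has 2 starts, of which the first was used.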

Additional observations from a re-analysis of the deposited data

Results flagged for a closer look

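The 601 barcodes that the authors' list puts in no cluster entered no comparison, and they held 1045 UMIs of the 10 genes, more than the 3 counts that a count of 0 allows. Their median depth was 212 UMIs, of which mitochondrial transcripts made up 36.8% in sum. B2m had 2149 CPM there (1935 to 2379), H2-D1 1613 CPM, H2-K1 1095 CPM, Calr 600 CPM (490 to 727) and Pdia3 210 CPM. Of H2-T3 1 UMI was found. B2m thus stood between its levels in B cells and in absorptive precursors. The cells behind these barcodes were not named.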

How the results depend on the processing

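No paired analysis was possible because both samples share 1 group and 1 matrix whose barcodes match neither. Of 396 member folds recomputed, 346 stayed within their main interval, 49 moved outside it and 1 that was past 2-fold crossed 1, that of H2-T23 in stem cells against precursors, at 1.47 with barcode set X2 only. In all 39 recomputed folds lay on the other side of 1, of which 0 in epithelial cells against IELs, 15 in B cells against IELs (H2-T23 at 3.05 and Pdia3 at 2.29 with set X2 only), 9 in iIELs against nIELs, 7 in stem cells (Calr at 0.776 with set X1 only, Tapbp at 0.944 with set X2 only) and 8 in secretory precursors. For epithelial cells against IELs the number of members past 2-fold was 7, and between 5 and 8 under every alternative run. For iIELs against nIELs it was 0 under all. For B cells against IELs it was 0, but 1 with set X2 only, 1 without possible doublets and 2 at 1.5-fold. For secretory against absorptive precursors it was 2, but 3 at 1.5-fold, 3 with the median fold of all genes set to 1, 3 without the cell with the most UMIs of the gene, 1 when CPM was averaged over cells, 1 with set X2 only and 4 with no filter beyond 1 UMI. For stem cells against precursors it was 1, but 4 without the cells with 2 listings, 4 without the 4 deepest cells, 4 without the cell with the most UMIs of the gene, 4 with no filter beyond 1 UMI, 3 at 1.5-fold, 2 when CPM was averaged over cells, 2 with set X1 only and 0 at a minimum of 50 UMIs. The last alternatives change the number of genes or the limit by construction, and for the others the cause was not tested. Shares of all genes were given for the main setting only, so that the counts under alternatives have none beside them. Joining barcodes 1 base apart left 493 assigned cells and moved no fold outside its interval. Alternatives that left the cells of a comparison as they were got no value. Depth limits Tap1, Tap2 and H2-T3 most, and sets of 32 cells rest on few deep ones.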
